A study of Mus musculus with 6 samples.

Results

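The genes described here are 33 genes of fatty acid oxidation, the breakdown of fatty acids to acetyl-CoA in mitochondria and peroxisomes, read out in the inguinal white fat of mice. They were chosen by gene symbol as members of the pathway, with no threshold on their values, and all 33 were found among the 14861 genes of the deposited table. By where the proteins work, 18 were counted as mitochondrial, 11 as peroxisomal, 2 as acting in both organelles (Crat and Eci2) and 2 in neither (Acot1 in the cytosol and Ppara in the nucleus). AdIGF1RKO mice carried a floxed gene for the insulin-like growth factor 1 receptor, Igf1r (line B6;129-Igf1rtm2Arge/J), and an Adipoq-Cre transgene, which expresses Cre recombinase from the adiponectin promoter and so in adipocytes, while the other cells of the fat pad keep the gene. Flox mice were littermates with the floxed gene (Igf1r fl/fl) and served as controls. Mice of both groups were fed chow for 24 weeks in which fat made up 10% of the calories, were fasted overnight and were anesthetized with Avertin before the inguinal fat pad was frozen. The labels used here name neither sex nor age. Each group had 3 libraries of polyadenylated RNA, numbered 1 to 3. The titles speak of mice, but nothing states that each library is a separate animal, so p-values measure the spread between these libraries.

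Long-chain fatty acids enter mitochondria as carnitine esters. Carnitine palmitoyltransferase 1 on the outer membrane makes the ester, a carrier moves it across the inner membrane, and carnitine palmitoyltransferase 2 turns it back into acyl-CoA. There acyl-CoA dehydrogenases, hydratases, hydroxyacyl-CoA dehydrogenases and thiolases shorten the chain in repeated rounds, and electrons from the first step pass through the electron transfer flavoprotein to the respiratory chain. Peroxisomes shorten very long and branched chains, using oxidases in place of dehydrogenases, and hand the products to mitochondria as carnitine esters or free acids. White fat stores fatty acids and releases them in fasting, and its capacity to oxidise them is low beside that of muscle, liver and brown fat.

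The genes of the table received 60617147 to 70695527 reads in each library. Levels are given as scaled CPM, which are reads divided by a median-ratio size factor, per 1000000 reads of a library of average size. They are not divided by gene length, so they compare libraries and not genes. Adipoq, the adiponectin gene and a defining marker of adipocytes, had 3878 ± 465 scaled CPM in AdIGF1RKO and 4182 ± 645 in Flox (SD, n = 3 each). Igf1r, the deleted gene, had 6.11, 5.27 and 4.85 scaled CPM in AdIGF1RKO 1 to 3, against 6.44, 6.47 and 5.86 in Flox 1 to 3, so the groups overlapped. Its log2 difference was -0.18 ± 0.12 (SE) (limma, adjusted p = 0.998). The libraries held unequal amounts of skeletal muscle RNA. The 19 muscle markers in the table, of 20 listed, took between 0.0541% and 4.86% of the reads in AdIGF1RKO and between 0.107% and 13.4% in Flox. The highest shares were in AdIGF1RKO 3 and Flox 3. Muscle oxidises fatty acids, so values without these 2 libraries stand beside those they moved most.

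None of the 33 genes passed the test for a difference between AdIGF1RKO and Flox. All 33 passed the filter of a mean of at least 1 scaled CPM, and limma on log2(scaled CPM + 1) called 0 of them at an adjusted p under 0.05, with the smallest adjusted p at 0.998. Of all 12993 genes tested 0 were called, which is 0% (385 had an unadjusted p under 0.05, edgeR called 0 genes and DESeq2 called 23, which is 0.178%). None of the 23 was among the 33, for which the smallest adjusted p was 0.981 with edgeR and 0.846 with DESeq2. At an unadjusted p under 0.05 limma had 1 gene of the 33, Eci1, against 2.96% of all genes tested (1.13% lower and 1.83% higher in AdIGF1RKO).

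The differences were small and mostly negative. AdIGF1RKO minus Flox was negative for 25 of the 33 genes, against 55.2% of all genes tested, and the median log2 difference was -0.07 beside -0.02 over all genes. The count of 25 depends on the scaling: it was 30 without rescaling (median of all genes -0.17) and 12 with libraries scaled to equal sums (0.09). For 28 of the 33 genes the 95% interval of the difference lay wholly within a change of 1.5-fold in either direction. The other 5 were Cpt1b, Crat, Acot1, Ppara and Ehhadh. In bulk tissue, fewer cells of a type and less RNA per cell cannot be told apart in any of these values.

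**Figure D1:**
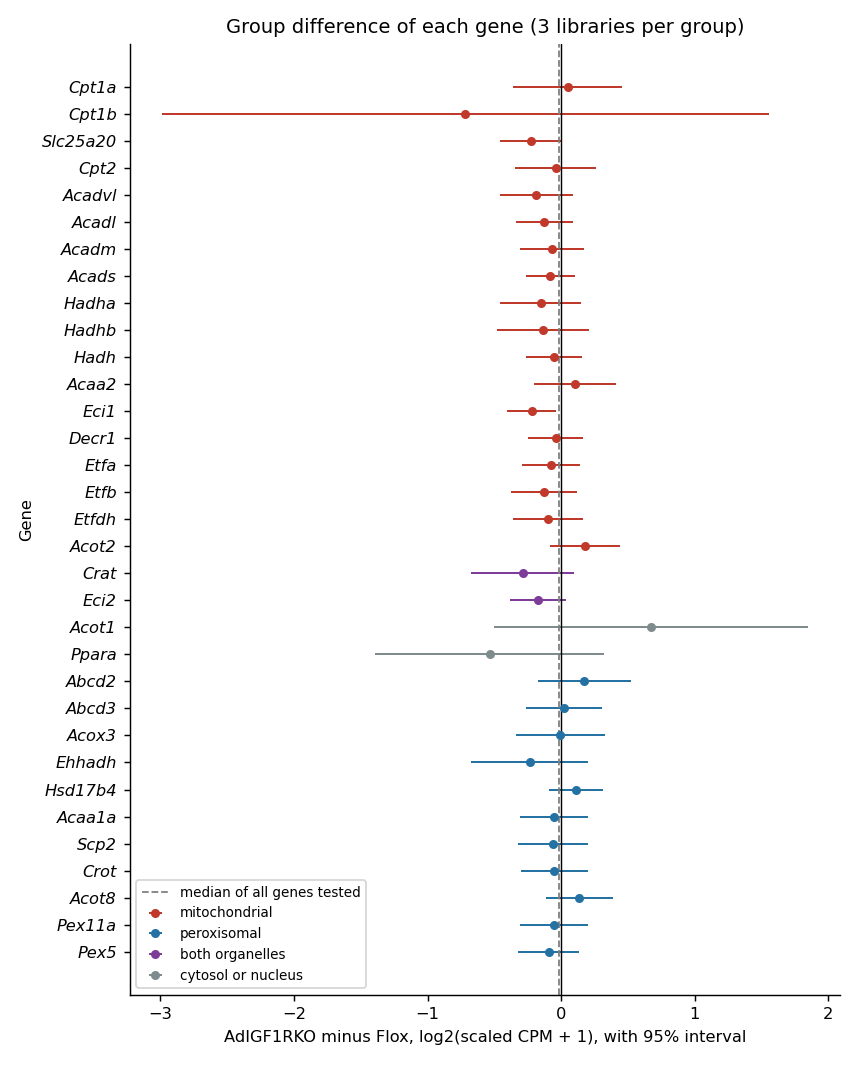
Each point is the log2 difference (AdIGF1RKO minus Flox, log2(scaled CPM + 1)) of 1 gene with its 95% interval from limma, coloured by the compartment of the protein, and the dashed line is the median of all genes tested, -0.02. With median-ratio scaling 25 of 33 points lie left of 0 (30 with the values as deposited, 12 with equal sums), and the interval of Eci1 alone excludes 0. That of Eci1 does not with the replicate block (limma, unadjusted p = 0.0599), equal sums (0.519) or quantile normalization (0.136).

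Entry of fatty acids into mitochondria is set by Cpt1a and Cpt1b, which encode the liver-type and muscle-type carnitine palmitoyltransferase 1. Cpt1a had 37.9, 35.9 and 28.9 scaled CPM in AdIGF1RKO 1 to 3, against 37.7, 35.5 and 26.4 in Flox 1 to 3. Its groups overlapped almost fully, and the lowest value of each group was in its muscle-rich library. The log2 difference of Cpt1a was 0.05 ± 0.17 (SE). Cpt1b had 5.34, 8.13 and 24.5 scaled CPM in AdIGF1RKO, against 14.5, 5.03 and 69.2 in Flox. Its pattern was the opposite of that of Cpt1a, since the highest value of each group was in its muscle-rich library, 3.64-fold above the mean of the other AdIGF1RKO libraries and 7.08-fold above the mean of the other Flox libraries. The log2 difference of Cpt1b was -0.72 ± 0.94 (SE), and it was -0.35 without both muscle-rich libraries, 0.24 without Flox 3, -1.30 without AdIGF1RKO 3, -1.53 without Flox 2 and -0.11 with the muscle markers as a covariate. On the recovered reads it was -1.23 with edgeR and -1.22 with DESeq2. In the GENCODE annotation (release M21, an earlier build than that of the data) 75.6% of the 100-base stretches of Cpt1b transcripts also occur in Gm44502, so how reads were divided between these is uncertain.

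The carrier Slc25a20, which exchanges acylcarnitine for carnitine across the inner membrane, had 68.0, 69.5 and 65.7 scaled CPM in AdIGF1RKO, against 76.3, 73.8 and 88.1 in Flox. All 3 AdIGF1RKO values lay below all 3 Flox values, and the highest was in Flox 3. AdIGF1RKO minus Flox was, in log2, -0.22 ± 0.10 (SE) (limma, unadjusted p = 0.0576), and -0.13 without both muscle-rich libraries (unadjusted p = 0.238). Cpt2, which releases acyl-CoA on the matrix side, had 79.2, 92.2 and 89.9 scaled CPM in AdIGF1RKO, against 76.3, 98.4 and 95.4 in Flox. Its groups overlapped, at a log2 difference of -0.04 ± 0.13 (SE).

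Groups did not overlap for 5 of the 33 genes, against 8.27% of all genes tested. In the lower direction these were Eci1, Slc25a20 and Eci2, beside 3.86% of all genes tested, and in the higher direction Acot2 and Hsd17b4, beside 4.41%. This also depends on the scaling. With the values as deposited 6 genes were lower without overlap and 0 higher, beside 11.5% and 0.954% of all genes. With equal sums 0 were lower and 1 higher, beside 0.793% and 5.86%. With quantile normalization Slc25a20 and Eci1 were lower and Acot2 was higher without overlap, beside 2.49% and 4.66% of all genes. With TMM scaling 4 were lower, Acads being added, and 2 higher, beside 3.68% and 4.5%.

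Eci1 encodes the mitochondrial enoyl-CoA isomerase that moves double bonds of unsaturated fatty acids into place for oxidation. It had 179, 178 and 169.8 scaled CPM in AdIGF1RKO, against 204, 199.7 and 211 in Flox. The groups stood apart by more than their internal spread, with 176 ± 5.13 in AdIGF1RKO and 205 ± 5.91 in Flox (SD, n = 3 each). The ratio of means was 0.857 and the log2 difference -0.22 ± 0.08 (SE) (limma, unadjusted p = 0.0257, adjusted p = 0.998). Without both muscle-rich libraries it was -0.18 (unadjusted p = 0.115), and leaving out single libraries moved it between -0.24 and -0.20. The difference of Eci1 was -0.10 with equal sums (limma, unadjusted p = 0.519) and -0.17 with quantile normalization (limma, unadjusted p = 0.136). With the replicate block, which pairs libraries by number, its unadjusted p was 0.0599, so that none of the 33 genes was then under 0.05. Over all alternatives its adjusted p ran from 0.724 to 1.00.

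Eci2, a related isomerase found in both organelles, had 153, 135 and 148 scaled CPM in AdIGF1RKO, against 158, 169 and 164 in Flox. Every AdIGF1RKO value was below every Flox value, though AdIGF1RKO 1 and Flox 1 lay close. On the log2 scale the difference was -0.17 ± 0.09 (SE) (limma, unadjusted p = 0.0883) and -0.19 without both muscle-rich libraries. Decr1, the dienoyl-CoA reductase that acts beside Eci1 on polyunsaturated chains, had 125, 141 and 127 scaled CPM in AdIGF1RKO, against 136, 129.6 and 139 in Flox. These overlapped, at a log2 difference of -0.04 ± 0.09 (SE).

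The promoter windows of the 3 genes that were lower without overlap with median-ratio scaling are shown. They run from 250 bases before to 50 bases after the start site, 5′ to 3′ on the strand of the gene (RefSeq, GRCm38.p6, an earlier build than that of the data). Capitals mark GC boxes (GGGCGG on either strand), the element bound by Sp1-type factors.
Eci1, chr17:24426433-24426732, plus strand: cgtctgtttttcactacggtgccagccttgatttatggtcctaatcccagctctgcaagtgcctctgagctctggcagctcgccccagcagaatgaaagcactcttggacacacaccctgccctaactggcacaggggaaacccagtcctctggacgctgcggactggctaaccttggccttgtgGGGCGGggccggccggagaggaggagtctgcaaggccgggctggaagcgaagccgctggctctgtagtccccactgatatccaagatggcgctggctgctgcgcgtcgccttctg
Slc25a20, chr9:108661886-108662185, plus strand: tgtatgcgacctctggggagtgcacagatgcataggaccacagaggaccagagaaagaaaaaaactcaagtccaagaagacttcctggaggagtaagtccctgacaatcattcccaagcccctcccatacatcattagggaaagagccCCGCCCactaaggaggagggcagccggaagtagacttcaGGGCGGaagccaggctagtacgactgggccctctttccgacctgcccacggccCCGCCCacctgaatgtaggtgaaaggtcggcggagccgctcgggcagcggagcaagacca
Eci2, chr13:34994095-34994394, minus strand: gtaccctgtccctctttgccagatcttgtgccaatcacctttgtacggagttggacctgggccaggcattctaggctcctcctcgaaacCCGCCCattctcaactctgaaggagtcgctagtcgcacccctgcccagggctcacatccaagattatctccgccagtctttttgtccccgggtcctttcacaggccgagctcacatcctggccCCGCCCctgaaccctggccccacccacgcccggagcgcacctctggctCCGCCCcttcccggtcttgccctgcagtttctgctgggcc
The window of Eci1 held 1 GC box and those of Slc25a20 and Eci2 held 3 each. Windows were at hand for 27 of the 33 genes, and 23 of their 30 windows held a GC box, beside 35.7% of all 32851 windows. The CCAAT motif was in 14 of the 30 windows, beside 37.4% of all. The DR1 motif of PPAR receptors and the estrogen-related receptor motif TCAAGGTCA, both of which contain AGGTCA and were searched on both strands, were in 0 of the 30 windows, beside 0.0396% and 0.423% of all. The core AGGTCA alone was in 4 windows, beside 16.3% of all. The NRF1 motif, searched on both strands, was in the windows of Abcd3, Etfb, Etfdh and Ppara, beside 4.6% of all. A match or its absence in these 300 bases is a description of the letters only.

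The oxidation spiral opens with the acyl-CoA dehydrogenases. Acadvl, the very-long-chain acyl-CoA dehydrogenase, had 212, 223 and 208 scaled CPM in AdIGF1RKO, against 248, 212 and 275 in Flox. The AdIGF1RKO values were tight and overlapped Flox 2, the Flox library with the least muscle RNA. The log2 difference was -0.19 ± 0.11 (SE), -0.08 without both muscle-rich libraries, -0.10 without Flox 3 and -0.28 without Flox 2 (limma, unadjusted p = 0.0371). Acadl, Acadm and Acads, which take long, medium and short chains, had log2 differences of -0.13, -0.07 and -0.08 with standard errors of 0.09, 0.10 and 0.08. Each of these 3 had overlapping groups, and without both muscle-rich libraries the values were -0.05, -0.03 and -0.04.

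Hadha and Hadhb encode the subunits of the mitochondrial trifunctional protein, which carries out the later steps for long chains. Hadha had 175, 179 and 167 scaled CPM in AdIGF1RKO, against 197, 164 and 222 in Flox, and Hadhb had 328, 399.8 and 339 in AdIGF1RKO, against 412, 328 and 437 in Flox. For both genes Flox 3 was the highest of the 6 libraries and Flox 2 was at the low end, so the groups overlapped. The level of Hadhb over that of Hadha was 1.88, 2.23 and 2.03 in AdIGF1RKO and 2.09, 2.01 and 1.97 in Flox, so the ratio spanned a narrow range and its groups overlapped. The log2 differences were -0.15 ± 0.13 (SE) for Hadha and -0.14 ± 0.14 (SE) for Hadhb, and -0.02 for each without both muscle-rich libraries. They were -0.05 for each without Flox 3, but -0.27 and -0.26 without Flox 2. The genes lie head to head, with RefSeq start sites 273 bases apart, and 228 of the 300 bases of their promoter windows are the same DNA. The Hadhb window is shown for this shared stretch, which capitals mark (chr5:30155003-30155302, GRCm38.p6, plus strand, 5′ to 3′).
Hadhb: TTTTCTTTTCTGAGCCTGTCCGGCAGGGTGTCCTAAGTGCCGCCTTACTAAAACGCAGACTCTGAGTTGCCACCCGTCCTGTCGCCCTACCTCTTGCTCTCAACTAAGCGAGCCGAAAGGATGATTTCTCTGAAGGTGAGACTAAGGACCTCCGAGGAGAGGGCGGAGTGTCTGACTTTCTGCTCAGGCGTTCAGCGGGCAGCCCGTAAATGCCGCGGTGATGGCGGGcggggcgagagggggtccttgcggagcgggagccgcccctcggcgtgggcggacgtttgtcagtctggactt
Hadhb shares 14.8% of its 100-base transcript stretches with Gm13910, so a part of its reads may be ambiguous.

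Hadh, which oxidises hydroxyacyl-CoA of shorter chains, had a log2 difference of -0.05 ± 0.09 (SE). Acaa2, the mitochondrial thiolase, had 202, 216 and 172 scaled CPM in AdIGF1RKO, against 204, 183 and 162 in Flox. The groups overlapped, and as for Cpt1a the lowest value of each group was in its muscle-rich library. The log2 difference of Acaa2 was 0.10 ± 0.13 (SE). The electron transfer genes Etfa, Etfb and Etfdh, which pass electrons from the dehydrogenases to ubiquinone, had log2 differences of -0.08, -0.13 and -0.10 with standard errors of 0.09, 0.10 and 0.11. All 3 had overlapping groups, with Etfb at 751, 781 and 771 scaled CPM in AdIGF1RKO, against 872, 750.1 and 905 in Flox. Without both muscle-rich libraries Etfb was at -0.08, and at -0.21 without Flox 2. It shares 35.8% of its 100-base stretches with Gm45233, whose reads cannot be told apart there.

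Crat, the carnitine acetyltransferase of mitochondria and peroxisomes, which buffers acetyl-CoA, had 216, 168 and 194 scaled CPM in AdIGF1RKO, against 217, 207 and 287 in Flox. Flox 3 stood above the other libraries, while AdIGF1RKO 1 and Flox 1 were about equal. AdIGF1RKO minus Flox was, in log2, -0.29 ± 0.16 (SE), and -0.15 without both muscle-rich libraries.

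**Figure D2:**
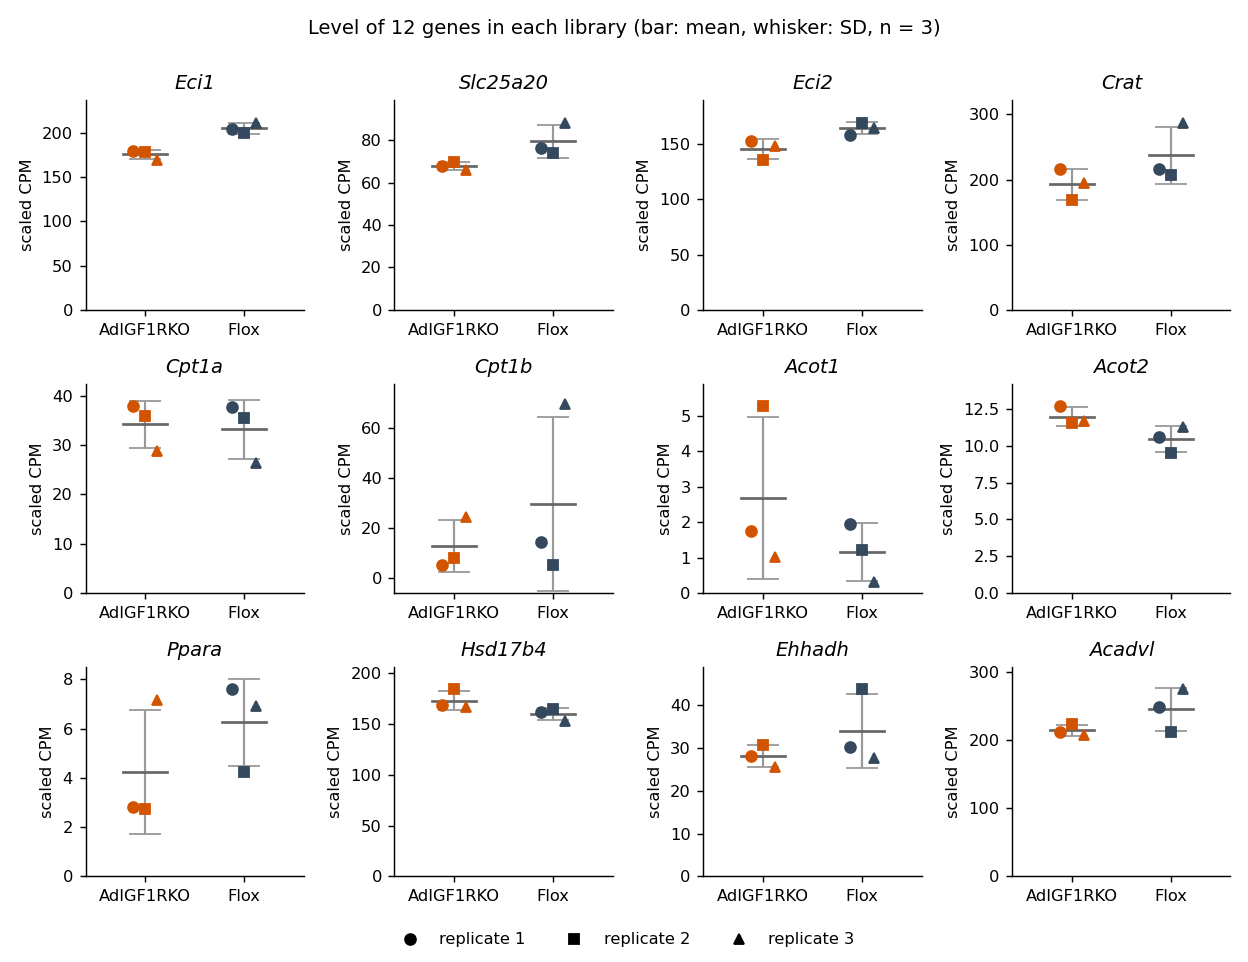
Scaled CPM of 12 genes in each library (circle, square and triangle for replicates 1, 2 and 3), with the group mean as a bar and the SD as a whisker (n = 3 per group). Eci1, Slc25a20 and Eci2 are lower and Acot2 and Hsd17b4 higher in AdIGF1RKO without overlap, but not with every scaling (with equal sums Acot2 alone), and Cpt1b reaches 69.2 in Flox 3.

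Ppara encodes the nuclear receptor PPAR alpha, which is activated by fatty acids and switches on many of these genes in liver and brown fat. It had 2.81, 2.76 and 7.15 scaled CPM in AdIGF1RKO, against 7.6, 4.23 and 6.92 in Flox. AdIGF1RKO 1 and AdIGF1RKO 2 were below all Flox libraries, and AdIGF1RKO 3, the muscle-rich one, was within the Flox range. On the log2 scale the difference was -0.54 ± 0.35 (SE) (limma, unadjusted p = 0.178). Without both muscle-rich libraries it was -0.84 (unadjusted p = 0.0253, adjusted p = 0.997), -0.91 without AdIGF1RKO 3 alone, and -0.36 with the muscle markers as a covariate. Each value rests on 195 to 538 reads.

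Acot2 and Acot1 encode mitochondrial and cytosolic acyl-CoA thioesterases, which release free fatty acids from acyl-CoA and are known targets of PPAR alpha. Acot2 had 12.7, 11.5 and 11.7 scaled CPM in AdIGF1RKO, against 10.6, 9.51 and 11.3 in Flox. The AdIGF1RKO values lay above the Flox values, but AdIGF1RKO 2 exceeded Flox 3 only narrowly. The log2 difference was 0.18 ± 0.11 (SE) (limma, unadjusted p = 0.144), and 0.03 with the values as deposited. Acot1 had 1.75, 5.27 and 1.01 scaled CPM in AdIGF1RKO, against 1.95, 1.21 and 0.311 in Flox. AdIGF1RKO 2 stood above the other 5 libraries, and the muscle-rich library was lowest in each group. AdIGF1RKO minus Flox was, in log2, 0.67 ± 0.49 (SE), with 0.20 without AdIGF1RKO 2, 0.36 without Flox 3 and 1.02 without AdIGF1RKO 3. It was 1.11 with a pseudocount of 0.1, 1.19 with edgeR and 1.21 with DESeq2. Acot1 rests on 15 to 373 reads per library.

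The genes of this pair lie in tandem on chromosome 12, with RefSeq start sites 21641 bases apart in GRCm38.p6, and their coding sequences (1257 bases for Acot1 and 1359 for Acot2) are near copies in part. Of the 100-base stretches of the Acot1 coding sequence 31.0% occur in Acot2, and 28.5% the other way round. The longest identical run, 273 bases from GENCODE M21, is shown because reads within it cannot be assigned to either gene (base 887 to 1159 of the Acot1 coding sequence and base 1010 to 1282 of that of Acot2, both genes on the plus strand, 5′ to 3′).
Acot1 and Acot2: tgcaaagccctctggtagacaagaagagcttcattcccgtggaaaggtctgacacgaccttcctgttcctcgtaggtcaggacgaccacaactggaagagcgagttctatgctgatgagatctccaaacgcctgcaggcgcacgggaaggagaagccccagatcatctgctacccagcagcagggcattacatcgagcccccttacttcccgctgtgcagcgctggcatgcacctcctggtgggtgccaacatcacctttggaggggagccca
The division of reads between both genes is therefore uncertain. The 6 values of Acot2 spanned 9.51 to 12.7 while those of Acot1 spanned 0.311 to 5.27.

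On the peroxisomal side, 7 of 11 genes had a negative difference and 4 a positive one. Abcd2 and Abcd3 encode transporters that bring very long, long and branched acyl-CoA into peroxisomes. Abcd2 had 207, 226 and 250.2 scaled CPM in AdIGF1RKO, against 169.9, 237 and 202 in Flox, with overlapping groups. Its log2 difference was 0.17 ± 0.14 (SE), with 0.05 without Flox 1, 0.29 without Flox 2, 0.11 without both muscle-rich libraries and 0.01 with the values as deposited, and that of Abcd3 was 0.02 ± 0.12 (SE).

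The peroxisomal spiral was represented by 5 genes. Hsd17b4, the D-bifunctional protein of the hydratase and dehydrogenase steps, had 169, 184 and 166 scaled CPM in AdIGF1RKO, against 162, 165 and 154 in Flox. The groups did not overlap, with AdIGF1RKO 3 just above Flox 2. On the log2 scale the difference was 0.11 ± 0.08 (SE), and -0.05 with the values as deposited. Ehhadh, the L-bifunctional protein and a PPAR alpha target in liver, had 28.0, 30.6 and 25.6 scaled CPM in AdIGF1RKO, against 30.1, 43.6 and 27.7 in Flox. Flox 2 stood above the other 5 libraries, which overlapped. The log2 difference was -0.24 ± 0.18 (SE), but -0.04 without Flox 2 and -0.36 without Flox 3. Acox3, an oxidase of branched chains, had -0.01 ± 0.14 (SE), Acaa1a, the peroxisomal thiolase, -0.05 ± 0.11 (SE), and Scp2, the sterol carrier protein with thiolase activity, -0.06 ± 0.11 (SE). Scp2 shares 21.8% of its 100-base stretches with the pseudogene Scp2-ps2, and Acaa1a shares 7.21% with Acaa1b.

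Products leave the peroxisome through Crot, the carnitine octanoyltransferase, and Acot8, a thioesterase. Acot8 had 17.1, 17.5 and 18.6 scaled CPM in AdIGF1RKO, against 17.4, 16.2 and 14.5 in Flox. AdIGF1RKO 1 lay below Flox 1, so the groups overlapped. The log2 difference of Acot8 was 0.14 ± 0.10 (SE), with 0.03 without both muscle-rich libraries and 0.07 without Flox 3, and that of Crot was -0.05 ± 0.10 (SE). Pex11a, which takes part in peroxisome division, and Pex5, the receptor that imports matrix enzymes, had -0.05 and -0.09 with standard errors of 0.11 and 0.09.

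**Figure D3:**
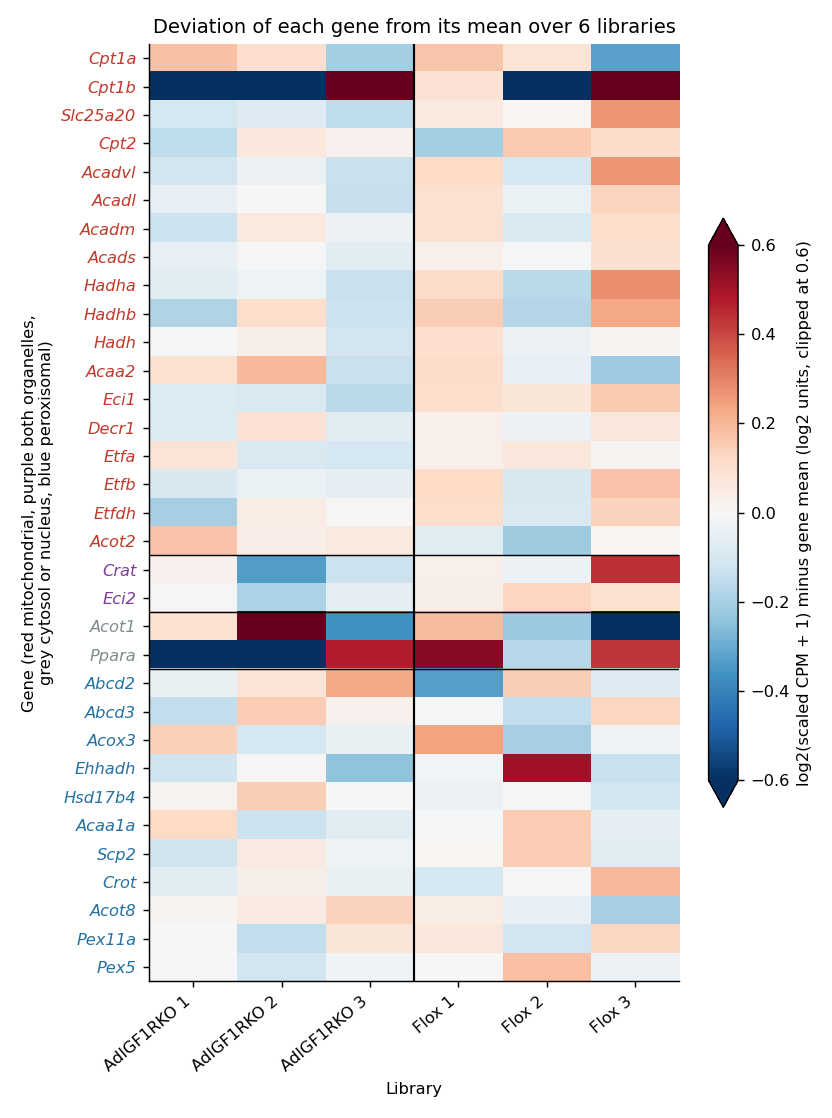
Each cell is the deviation of a gene's log2(scaled CPM + 1) in 1 library from its mean over the 6 libraries, in log2 units and clipped at 0.6, with genes in order of role and colour of name by compartment. Flox 3 holds the highest value of 11 of the 18 mitochondrial genes, beside 30.8% of all genes tested. Of the 33 genes 5 are at their lowest there (Cpt1a, Acaa2, Acot1, Hsd17b4 and Acot8), beside 26.2% of all genes tested.

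Mitochondrial genes were set against peroxisomal genes without a test, since both sets were chosen with earlier results known. Of the 18 mitochondrial genes 15 were negative, their median difference being -0.09 on the log2 scale, and the 11 peroxisomal genes had a median of -0.05. With equal sums 8 mitochondrial and 1 peroxisomal gene were negative, with medians of 0.033 and 0.071, and without rescaling 17 and 10 were, with medians of -0.25 and -0.21. The mitochondrial minus the peroxisomal median was -0.04. In each library the median deviation of the mitochondrial genes from their mean was -0.08, 0.02 and -0.11 in AdIGF1RKO 1 to 3, against 0.10, -0.04 and 0.12 in Flox 1 to 3. Flox 2 lay within the range of AdIGF1RKO, so the groups overlapped, and Flox 1 and Flox 3 lay above all AdIGF1RKO libraries. The peroxisomal medians were -0.01, 0.03 and -0.02 in AdIGF1RKO, against -0.01, -0.01 and -0.06 in Flox. These lay close to 0 in every library, and their groups overlapped too. Mitochondrial minus peroxisomal was -0.07, -0.02 and -0.09 in AdIGF1RKO, against 0.11, -0.03 and 0.18 in Flox, again with Flox 2 inside the AdIGF1RKO range.

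**Figure D4:**
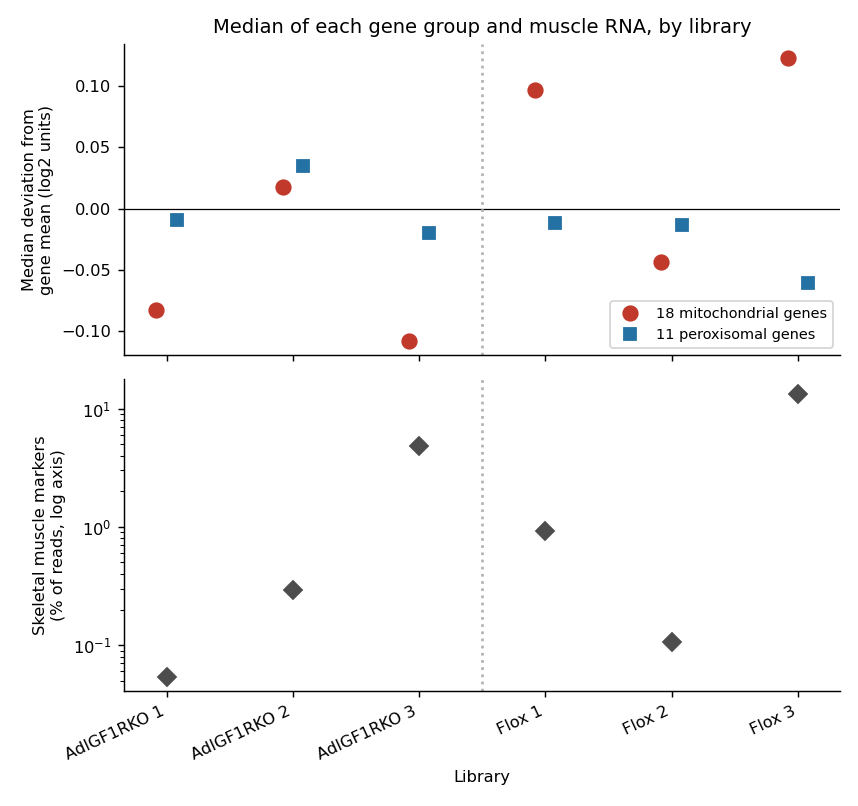
The upper panel gives the median deviation from the gene mean (log2 units) of the 18 mitochondrial genes (circles) and the 11 peroxisomal genes (squares) in each library, and the lower panel the share of reads from skeletal muscle markers on a log axis. The mitochondrial median is 0.12 in Flox 3, where muscle markers took 13.4% of reads, and -0.11 in AdIGF1RKO 3, where they took 4.86%.

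Muscle RNA differed between libraries, and its part in these values was not tested. Flox 3 held the highest value of 11 of 18 mitochondrial genes, 61.1%, beside 30.8% of all genes tested, and of 2 of 11 peroxisomal genes. AdIGF1RKO 3, the other muscle-rich library, held the highest value of 0 mitochondrial genes, beside 7.53% of all genes tested. It held the lowest value of 7, beside 13.1% of all genes tested. Without both libraries 14 mitochondrial genes were negative with a median of -0.04, and 6 peroxisomal genes were negative with a median of -0.0024. The median of all genes was then -0.0036. With the muscle markers as a covariate 16 mitochondrial genes were negative with a median of -0.08, and 7 peroxisomal genes with a median of -0.016. The mitochondrial median was -0.05 without Flox 3 alone and -0.08 without AdIGF1RKO 3 alone. It was -0.15 without Flox 2. All 19 muscle markers tested had negative log2 differences, with a median of -1.46, and their summed level ran from 496 to 49280 scaled CPM in AdIGF1RKO and from 1028 to 168741 in Flox. No gene of the table was at 0 reads in any library, so that the muscle markers in it were above 0 says nothing particular about them.

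Brown and beige adipocytes oxidise fatty acids as well. Of 15 markers of these cells 12 were in the table and 9 were tested, 6 of them lower in AdIGF1RKO by the sign of the difference. Ucp1, Elovl3 and Zic1 were not among the genes of the table. The summed level of the 12 markers in the table ran from 499 to 1051 scaled CPM in AdIGF1RKO and from 425 to 2430 in Flox, with the highest sum in Flox 3. Cox7a1 and Cox8b, cytochrome oxidase subunits that muscle also expresses, made up 2296 of that sum. The other 10 markers summed to 80.9 to 176 scaled CPM in AdIGF1RKO and 103 to 174 in Flox, and to 134 in Flox 3. Ebf2, a transcription factor of brown adipocytes, had 20.9, 20.2 and 20.8 scaled CPM in AdIGF1RKO, against 24.99, 22.7 and 23.8 in Flox, without overlap. Its log2 difference was -0.20 ± 0.09 (SE). Of the 9 markers tested Ebf2 was the 1 without overlap, beside 3.86% of all genes tested that were lower without overlap. The difference was positive for 3 of the 9, among them Otop1, at a log2 difference of 0.43 ± 0.49 (SE) with overlapping groups. Both cytochrome oxidase genes were singled out after their values were seen. The part of these cells in the results was not tested.

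Among other genes of the pathway limma, too, called 0 at an adjusted p under 0.05, and 3 of them had an unadjusted p under 0.05. Their counts by sign hold for median-ratio scaling. Of 21 further mitochondrial genes tested 17 were negative, with a median of -0.07, and the smallest unadjusted limma p was that of Hsd17b10, a short-chain dehydrogenase, with 198 ± 17.5 scaled CPM in AdIGF1RKO and 224 ± 5.13 in Flox (SD, 3 libraries each). Of 22 further peroxisomal lipid enzymes 15 were negative, with a median of -0.04, among them Hacl1, the lyase of alpha-oxidation, with 28.6, 20.7 and 25.5 scaled CPM in AdIGF1RKO, against 30.3, 43.8 and 30.2 in Flox. Hacl1 did not overlap between groups, at a log2 difference of -0.46 ± 0.19 (SE) (limma, unadjusted p = 0.0479, adjusted p = 0.998). In the same list Tysnd1, a protease of peroxisomal enzymes, had 22.01, 20.3 and 22.1 scaled CPM in AdIGF1RKO, against 18.7, 18.5 and 20.1 in Flox, higher without overlap at 0.16 ± 0.09 (SE) in log2. Far1, a reductase of ether lipid synthesis, had a log2 difference of 0.36 ± 0.18 (SE), with overlapping groups. Of the 22 genes 2 were higher and 2 lower without overlap, beside 4.41% and 3.86% of all genes tested. Of 16 further peroxins 12 were negative, with a median of -0.07.

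Among 15 acyl-CoA synthetases tested, which activate fatty acids before oxidation or storage, 9 were negative, with a median of -0.07. Acsm3, a medium-chain synthetase of mitochondria, had 17.4, 19.0 and 19.8 scaled CPM in AdIGF1RKO, against 21.7, 38.0 and 30.1 in Flox. Its groups did not overlap, at a log2 difference of -0.62 ± 0.20 (SE) (limma, unadjusted p = 0.0196, adjusted p = 0.998). Of 21 regulators 14 were negative, with a median of -0.17. Acacb, the acetyl-CoA carboxylase that makes the malonyl-CoA inhibiting carnitine palmitoyltransferase 1, had 30.6, 38.0 and 40.1 scaled CPM in AdIGF1RKO, against 45.3, 39.4 and 58.3 in Flox. AdIGF1RKO 3 lay above Flox 2, and the log2 difference was -0.38 ± 0.17 (SE). Sirt3, a mitochondrial deacetylase of oxidation enzymes, had 27.3 ± 2.79 in AdIGF1RKO and 31.8 ± 0.794 in Flox (SD, 3 libraries each), without overlap. Pparg, the adipocyte member of the PPAR family, had 159, 266 and 198 scaled CPM in AdIGF1RKO, against 140.2, 173 and 154 in Flox, with overlapping groups and a log2 difference of 0.38 ± 0.20 (SE). Of 16 PPAR target genes outside the 33, 8 were negative and 8 positive, with a median of 0.02. Pdk4, the kinase that turns cells from glucose to fatty acid use, had 158, 171 and 241 scaled CPM in AdIGF1RKO, against 229, 164 and 461 in Flox, and again the muscle-rich library was highest in each group.

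**Figure D5:**
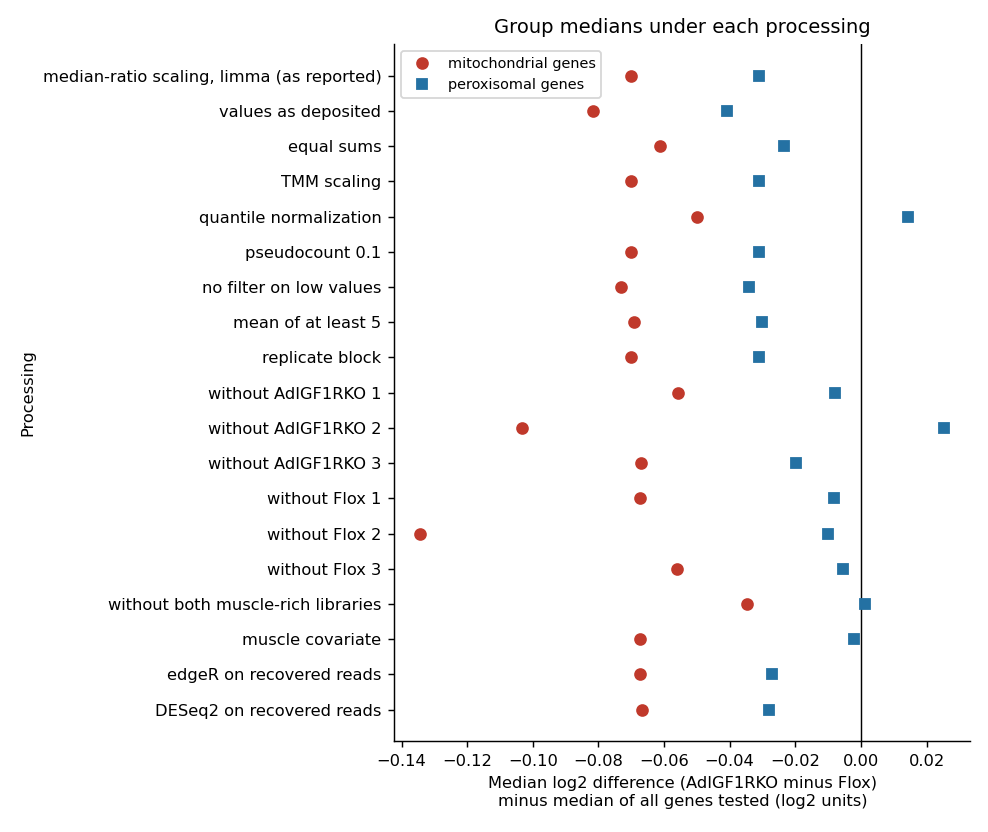
For each processing, the median log2 difference (AdIGF1RKO minus Flox) of the mitochondrial genes (circles) and the peroxisomal genes (squares) minus that of all genes tested. The mitochondrial value runs from -0.13 to -0.03, and the peroxisomal value from -0.04 to 0.03.

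Relative to all genes tested, the mitochondrial median was lower under each of the 5 scalings, by between -0.08 and -0.05 on the log2 scale. A scaling with a single factor per library shifts all genes nearly alike, so it could hardly change this value. The peroxisomal median relative to all genes ran from -0.04 to 0.01 over the same scalings, and so had no fixed direction. Mitochondrial minus peroxisomal was negative in each of the 19 fits, between -0.13 and -0.04, while in single libraries the groups overlapped. The fits reuse the same libraries, and several of them could hardly change this difference, so they are not separate support for it.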

How the data were processed

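Polyadenylated RNA of 6 inguinal fat samples was sequenced from a strand-specific kit, per the labels' protocols, and the genome build was GRCm39, per the submitters' processing notes. No aligner or counter is named in the labels or headers. The authors deposited 1 signal value per gene and library, named FPKM, without correction for gene length. With a divisor per library, whole reads gave back 100% of the values to within 0.5 unit of the deposited value. No sample column was left unused. Scaled CPM came from dividing these reads by size factors of the median-ratio method, and log2(scaled CPM + 1) was tested with limma 3.58.1 in R 4.3.3 over the 12993 genes with a mean of at least 1, leaving out 1868, with Benjamini-Hochberg adjustment. edgeR 4.0.16 and DESeq2 1.42.0 on the recovered counts, other scalings, filters and left-out libraries were alternatives. The fitting code was tested on simulated counts with a capped spread between libraries and no added muscle RNA. That test does not measure the power of the fit in these libraries.

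The members and lists were chosen with earlier results of these data known. Values per library are given for Ppara, the carnitine entry genes, the genes of both organelles, Acot1 and Acot2, genes without overlap and the 4 mitochondrial and 4 peroxisomal genes with the smallest unadjusted p, and up to 3 genes were taken from each other list. The result for 1 gene of these lists is not reported here. Samples of the same number deviated together from their group means (correlations of 0.347, 0.349 and 0.834 across genes). An alternative fit, the replicate block, therefore paired the libraries by number, while the reported fit did not pair them. AdIGF1RKO 1 correlated more with Flox 2, at 0.700. Both libraries numbered 3 are the muscle-rich ones, at the same end of the first principal component (74.1% of the variance), and the part of muscle RNA in these correlations was not tested. Intervals cover the spread between libraries.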

Additional observations from a re-analysis of the deposited data

How the results depend on the processing

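The count of 0 genes called by limma over the whole table was 23 with DESeq2 and ran from 0 to 1 with single libraries left out, the 1 being Aldh1a7 without Flox 1. None of the 33 genes was called under any of the alternatives run. With the replicate block, which pairs the libraries by number, 0 genes were called, 582 had an unadjusted p under 0.05, the smallest adjusted p among the 33 was 0.914, no call at an adjusted p under 0.05 changed, and Eci1 went to an unadjusted p of 0.0599. The mitochondrial median of -0.09 was -0.25 with the values as deposited, 0.033 with equal sums and between -0.15 and -0.05 with single libraries left out. The peroxisomal median of -0.05 was -0.21 as deposited, 0.071 with equal sums, 0.029 with quantile normalization, -0.0024 without both muscle-rich libraries, -0.016 with the muscle covariate and between -0.032 and -0.0014 with single libraries left out. Mitochondrial minus peroxisomal, -0.04, was between -0.13 and -0.047 with single libraries left out, the lowest without AdIGF1RKO 2. Of the 33 differences 13 had the other sign with equal sums, 5 with the values as deposited, 5 with quantile normalization, 2 without both muscle-rich libraries, 1 with the muscle covariate, and 1 to 4 with single libraries left out. Among the 15 genes followed singly, the sign turned for Acot8 (-0.018), Cpt1a (-0.11) and Hsd17b4 (-0.052) with the values as deposited, for Cpt2 (0.081) with equal sums and for Cpt1a (-0.039) with the muscle covariate. With single libraries left out it turned for Cpt1a (-0.025 without AdIGF1RKO 1 and -0.099 without Flox 3, the lowest, with 0.16 as the highest), Cpt1b (0.24 without Flox 3, with -1.53 without Flox 2 as the lowest) and Cpt2 (0.026 without AdIGF1RKO 1, 0.028 without Flox 2, the highest, and 0.0064 without Flox 3, with -0.15 as the lowest). The cause was not tested. Counting Crat and Eci2 as mitochondrial or as peroxisomal moved each median by less than the spread between libraries. Depth limits Acot1, with 15 to 373 reads per library, more than the other genes.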

Other observations

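Markers of other cells of the fat pad were read in the same libraries, and limma called 0 of them at an adjusted p under 0.05, while 4 of them had an unadjusted p under 0.05. The leptin gene Lep, a hormone gene of adipocytes, had 396, 580.0 and 502 scaled CPM in AdIGF1RKO, against 200.2, 277 and 159 in Flox. Every AdIGF1RKO value lay above every Flox value, at a log2 difference of 1.23 ± 0.23 (SE), and DESeq2 called it. Of 15 mature adipocyte markers 9 were negative, with a median of -0.08. Of 10 endothelial markers 9 were positive, with a median of 0.20, and 5 were higher in AdIGF1RKO without overlap, beside 4.41% of all genes tested. This count was 4 with TMM, 3 with quantile normalization, 2 with equal sums and 0 with the values as deposited. Among the 5 was Erg, a transcription factor of endothelial cells, with 28.3, 31.4 and 27.5 scaled CPM in AdIGF1RKO, against 25.9, 24.6 and 21.4 in Flox. Of 12 macrophage markers 8 were positive, with a median of 0.20. Mmp12, a macrophage elastase, had 5.12, 121 and 13.3 scaled CPM in AdIGF1RKO, against 2.53, 1.28 and 6.30 in Flox, so AdIGF1RKO 2 stood far above the rest. Cd163, another of the macrophage markers, had a log2 difference of -0.31 ± 0.25 (SE), with overlapping groups. Of 7 lymphocyte markers tested 5 were positive, with a median of 0.15, and Cd79b, a chain of the B cell receptor complex, had 2.94 ± 0.104 scaled CPM in AdIGF1RKO and 1.601 ± 0.3005 in Flox (SD, 3 libraries each). Cd79b rests on 73 to 236 reads per library. Cd3e, another of the lymphocyte markers, went the other way, at a log2 difference of -0.43 ± 0.28 (SE) with overlapping groups. Of 10 fibroblast and progenitor markers 7 were negative, with a median of -0.03. Of 10 mammary epithelial markers 2 were in the table, and Krt18 was the 1 tested, at a log2 difference of 0.38 ± 0.68 (SE).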
